A study of Mus musculus with 6 samples.

Results

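Translation factors are the proteins that load ribosomes onto mRNA, move them along it and release the finished chain. The genes described here are the mouse initiation, elongation and release factors that carried at least 1 peak in an eCLIP comparison of the RNA-binding protein ZFP36L2 with IgG. They were taken by name from the deposited peak table, as every gene name that begins with Eif1 to Eif6, Eef1 or Eef2 together with Etf1 and Gspt1, and the translational repressor Eif4ebp2 was left out. This gave 57 of the 10818 gene names in the table, with 261 of its 55449 peaks. The name pattern also caught 8 regulators and modifying enzymes, such as the eIF2 kinases, and 3 pseudogenes, which are kept apart below. RefSeq lists 87 symbols of this pattern, and the other 30 had no peak among those analysed here.

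All libraries came from MLTC-1, a single mouse Leydig tumour cell line, irradiated at 254 nm and 400 mJ per cm2 so that proteins were crosslinked to the RNA they touched. An antibody to ZFP36L2 gave 2 immunoprecipitation (IP) libraries, each with an input library of RNA bound by all proteins. The negative control, made with rabbit IgG, was 1 IP library and its 1 input. The labels do not state whether separate cultures were used, so p-values may measure technical spread alone. The data used here are the authors' values per peak, which are the ratio of ZFP36L2 to IgG on the log2 scale and its p-value before and after adjustment. No column holds the value of a library, so the depth is unknown and no level, spread or interval can be given for either antibody. That ZFP36L2 is on top of the ratio is taken from the table's name. Positions are on mouse genome build mm10.

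Initiation begins when eIF2 brings the initiator tRNA to the small ribosomal subunit, which eIF1, eIF1A and the many-subunit scaffold eIF3 hold ready. The eIF4F complex (the cap-binding eIF4E, the scaffold eIF4G and the helicase eIF4A) recruits that subunit to the capped end of the mRNA, and eIF5B helps the large subunit to join. eEF1A then delivers each aminoacyl-tRNA, eEF2 moves the ribosome by a codon, and eRF1 (Etf1) with eRF3 (Gspt1) ends the chain at a stop codon. ZFP36L2 is a CCCH zinc finger protein known for binding AU-rich stretches in the 3′ UTRs of mRNAs and promoting their decay.

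The comparison asked which sites on the mRNAs of translation factors were recovered more, or less, with the ZFP36L2 antibody than with IgG. A call needed an adjusted p below 0.05. It also needed a log2 ratio of at least 1 for a peak to be called higher, or one no greater than -1 for it to be called lower. Translation factor genes held 15 peaks called higher (5.75%), against 2.22% of all peaks in the table. These peaks lay in 9 of the 57 genes (15.8%), against 5.04% of all genes with a peak. Another 12 peaks (4.60%) were called lower, against 5.44% of all peaks, and they lay in 10 genes (17.5%), against 17.3% of all genes. The share of lower calls was therefore close to that of the whole table. Without Eif3a, which alone held 5 of the higher calls, 10 of 254 peaks (3.94%) were called higher. None of these differences in share was tested.

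The peaks called higher belonged to Eif3a and Eif3c, 2 subunits of eIF3, to Eif5b, to Eif2s2, the beta subunit of eIF2, to Eif4g1, the main eIF4G scaffold, and to the elongation factor genes Eef1a2, Eef1b2, Eef1g and Eef2. Of these 15 peaks, 14 were coding and 1, that of Eif4g1, was intronic. The peaks called lower belonged to Eif1a, Eif3e, Eif3l, Eif3m, Eif4e, Eif4g2, Eif4g3, Eif5b, Gspt1 and Eif4ebp1. Of these 12 peaks, 8 were intronic, 3 were in 3′ UTRs and 1 was coding. Eif5b was the 1 gene with calls in both directions. The remaining 39 genes had no called peak.

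In the authors' deposited table the log2 fold changes of the 261 peaks had their median at -0.31, with quartiles of -1.43 and 0.73, against -1.06 with quartiles of -1.90 and -0.06 for all peaks. Relative to that shift of the whole table, the translation factor median stood 0.75 higher, so its sign depends on whether values are centred. Of the 261 values, 155 (59.4%) were below 0, against 76.2% of all peaks. An adjusted p of 1, to the 2 decimals of the −log10 scale, was deposited for 194 of them (74.3%), against 74.6% of all peaks.

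**Figure D1:**
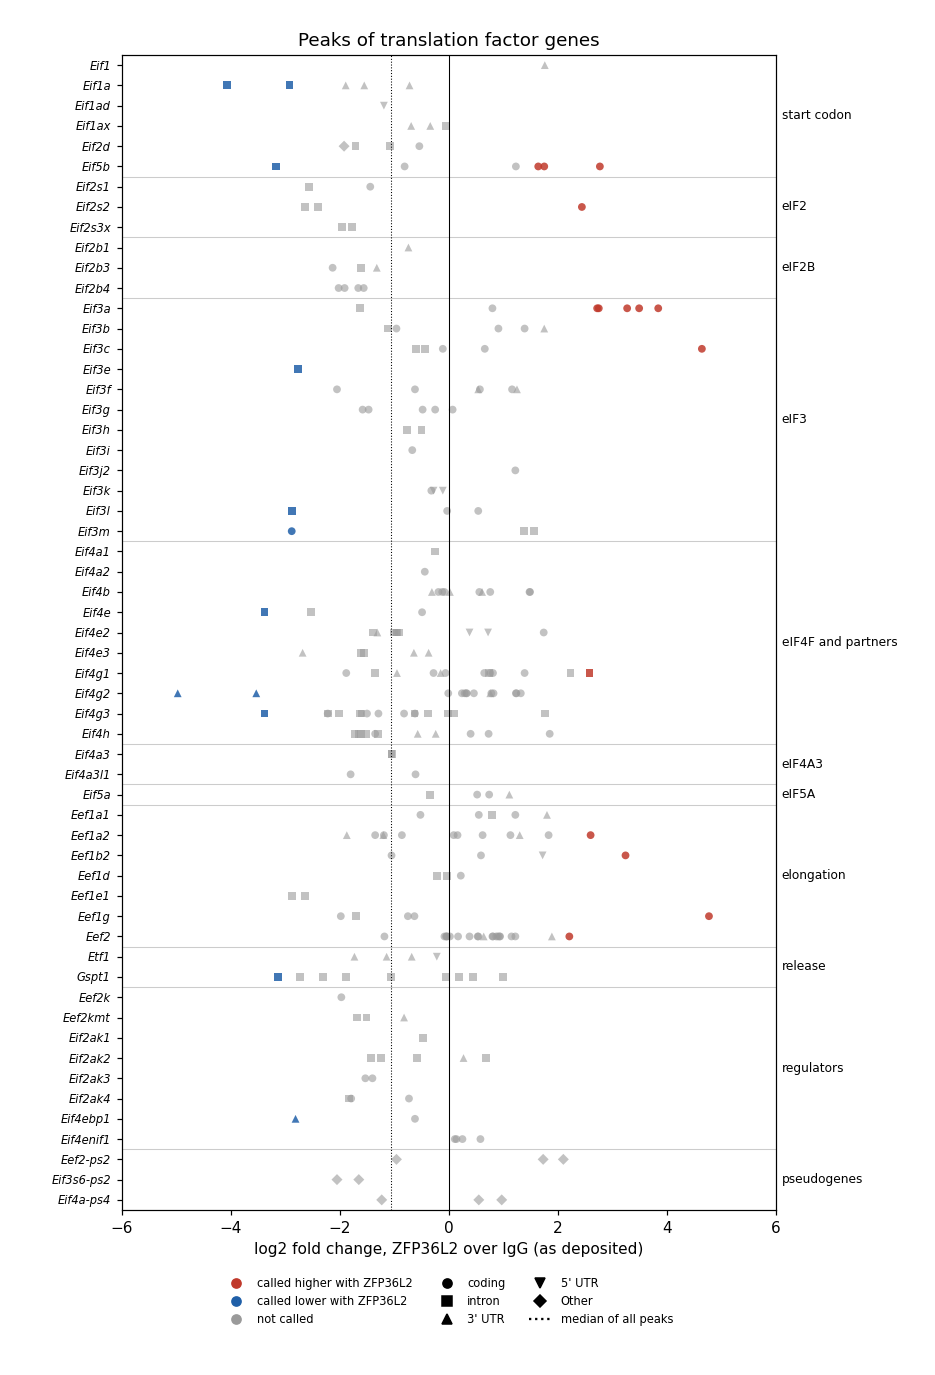
Each point is 1 of the 261 peaks of the 57 genes, placed on the horizontal axis by its log2 ratio of ZFP36L2 to IgG in the authors' deposited table, with genes grouped by role down the page. Red points are the 15 peaks called higher, blue points the 12 called lower, shapes give the transcript region, and the dotted line is the median of all peaks at -1.06. Most red points are circles (coding) and most blue ones are squares (intronic).

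The eIF3 complex held the best-supported sites. Eif3a encodes its largest subunit, and 5 of its 7 peaks were called higher. In the authors' deposited table these 5 coding peaks had log2 fold changes of 3.84, 3.27, 2.72, 2.75 and 3.49, in the order of the transcript. They lay on the minus strand of chromosome 19 between 60768851 and 60771016, within 2166 bases. The peaks at 60768874 to 60768889 and 60768890 to 60768893 touched, and the one at 60768851 to 60768864 lay close by. The 5 calls may therefore not be 5 separate sites. They were short, from 3 to 16 nucleotides each and 42 in all. The peak at 60768851 to 60768864 had the smallest adjusted p of any translation factor peak (3.3e-31, as the authors' deposited table lists it), and it ranked 96th of the 55449 peaks by that value. The other 4 ranked between 113th and 206th. All 5 were thus in the part of the gene from 66.5% to 73.8% of its RefSeq length. The other coding peak, at 60773903 to 60773926, and the intronic one, at 60786829 to 60786874, had 0.80 and -1.63 in the authors' deposited table, and neither was called.

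Eif3c, another core subunit, had 1 of 5 peaks called higher. That coding peak of 30 nucleotides, at 126558670 to 126558699 on chromosome 7, stood at 4.64 on the log2 scale (adjusted p = 4.0e-19), as listed in the authors' deposited table. Its 4 other peaks lay between -0.60 and 0.66 there, so this peak stood apart from the other peaks of its gene. Eif3b, which anchors the scanning module of eIF3, reached 1.75 in its 3′ UTR (adjusted p = 0.81, per the authors' deposited table), and none of its 5 peaks was called. In the subunit gene Eif3f, the peaks of the 3′ UTR had 1.25 and 0.54 in the authors' deposited table, and neither they nor its 4 coding peaks were called.

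Other eIF3 subunits had lower calls. Eif3e had a single peak, intronic, at 43279032 to 43279095 on chromosome 15, with -2.77 (adjusted p = 0.0047), per the authors' deposited table. Eif3l had an intronic peak at 79085894 to 79085944 on chromosome 15 with -2.88 (adjusted p = 0.025), per the authors' deposited table. Its 2 coding peaks had 0.54 and -0.03 there and were not called. Eif3m differed from both, since its lower call was in coding sequence. That peak, at 105001339 to 105001405 on chromosome 2, had -2.88 (adjusted p = 0.020), while its 2 intronic peaks had 1.56 and 1.38 with no call, all in the authors' deposited table. Of the subunits without a call, Eif3g, Eif3h, Eif3i and Eif3k lay between -1.58 and 0.07 in the authors' deposited table, and the 1 peak of Eif3j2 had 1.22 there. Over the whole complex, 12 of 14 listed subunit genes had a peak, and the genes Eif3d and Eif3j1 had none. Of the 42 peaks, 6 (14.3%) were called higher, against 2.22% of all peaks, but 5 of the 6 lay in Eif3a. The 3 called lower (7.14%) were near the 5.44% of all peaks. The median log2 fold change of eIF3 peaks in the authors' deposited table was -0.07.

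Among the factors of start codon selection and subunit joining, Eif5b was called in both directions. Its coding peaks at 38017853 to 38017920, 38033134 to 38033157 and 38034101 to 38034103 on chromosome 1 had 1.64, 1.75 and 2.77 in the authors' deposited table. The adjusted p of the last, a peak of 3 nucleotides, was 1.3e-10, and that of the other two was 0.0087 each. At a log2 fold change of at least 2, only the last would be called. Between these sites, coding peaks at 38034021 to 38034049 and 38034050 to 38034083 had -0.81 and 1.23 in the authors' deposited table and were not called. The intronic peak at 38049525 to 38049585, nearer the gene's 3′ end, had -3.17 (adjusted p = 1.3e-05), as listed in the authors' deposited table.

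Eif1a and Eif1ax are copies of the gene for the scanning factor eIF1A. In the authors' deposited table, 2 touching intronic peaks of Eif1a, from 46603780 to 46603840 on chromosome 18, had -4.07 (adjusted p = 5.6e-06) and -2.92 (adjusted p = 0.025). Its 3 peaks in the 3′ UTR had -1.55, -1.89 and -0.72 in the authors' deposited table and were not called. The 3 Eif1ax peaks, from -0.69 to -0.06 there, were not called either, and whether the authors' counting could tell the copies apart is not known. Eif1, a gatekeeper of start codon choice, had 1 peak, in its 3′ UTR, with 1.76 (adjusted p = 0.46), as listed in the authors' deposited table. No peak of Eif2d, a factor that can deliver tRNA without eIF2, or of Eif1ad, related to eIF1A by name, was called. Eif5, the GTPase activator of eIF2, had no peak.

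For eIF2 itself, 1 of 7 peaks (14.3%) was called higher, against 2.22% of all peaks, and 0 were called lower, against 5.44%. With 7 peaks these shares are coarse, and the differences were not tested. The coding peak of Eif2s2 at 154892688 to 154892767 on chromosome 2, on the minus strand, had 2.44 (adjusted p = 3.9e-05), as listed in the authors' deposited table. It began 139 bases from the gene's RefSeq start, at the 5′ end of the transcript. The 2 touching intronic peaks of the same gene, at 154873864 to 154873923, had -2.63 and -2.40 in the authors' deposited table with no call (adjusted p = 0.13 and 0.51). The alpha subunit gene Eif2s1 reached -2.56 in an intron (adjusted p = 0.063), and the gamma subunit gene Eif2s3x had -1.96 and -1.77 in an intron, again with no call in the authors' deposited table. Eif2b1, Eif2b3 and Eif2b4, subunits of the exchange factor that recharges eIF2 with GTP, had 8 peaks between -2.13 and -0.74 in the authors' deposited table. All 8 were below 0, as were 76.2% of all peaks, with no test of the difference. None of the 8 was called, which is near the background at the 2.22% higher and 5.44% lower of all peaks. Of the 8, 0 had an unadjusted p under 0.05 in the authors' deposited table.

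The eIF4F complex and its partners carried more peaks than any other role group, 82 in 10 genes. Of these, 1 (1.22%) was called higher and 4 (4.88%) lower, both near the 2.22% and 5.44% of all peaks. Eif4g1 had 13 peaks. Its intronic peak at 20677816 to 20677846 on chromosome 16 had 2.58 (adjusted p = 0.012), as listed in the authors' deposited table, and the adjoining one, at 20677847 to 20677878, had 2.23 (adjusted p = 0.095). The first call does not hold at an adjusted p under 0.01. The other 11 Eif4g1 peaks lay between -1.88 and 1.39 in the authors' deposited table.

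Eif4g2 encodes DAP5, an eIF4G relative that lacks the eIF4E-binding part and serves cap-independent initiation. It had the most negative value of all translation factor peaks. In the authors' deposited table, 2 touching peaks in its 3′ UTR, from 111069780 to 111069826 on chromosome 7, had -3.53 (adjusted p = 0.0074) and -4.97 (adjusted p = 7.1e-09). They covered 47 nucleotides and ended 1795 bases before the RefSeq end of the gene. Its other 12 peaks, 11 coding and 1 in the 3′ UTR, lay between -0.01 and 1.32 in the authors' deposited table, with no overlap with those 2 and no call. Eif4g3, the third eIF4G gene, had 15 peaks, whose values in the authors' deposited table had their median at -1.29. Of these, an intronic one at 138088392 to 138088437 on chromosome 4 was called lower, with -3.38 (adjusted p = 0.011) there.

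Eif4e, the cap-binding subunit, had 3 peaks. The intronic one at 138530767 to 138530826 on chromosome 3 had -3.38 (adjusted p = 0.0016), the second intronic one -2.52 (adjusted p = 0.46) and the coding one -0.49 (adjusted p = 1), all in the authors' deposited table. Only the first was called. Eif4b, a cofactor of the helicase eIF4A, had 10 peaks from -0.31 to 1.49 in the authors' deposited table and no call. Eif4h, a related cofactor, had 11 peaks from -1.73 to 1.85, and again no call in the authors' deposited table. The helicase genes Eif4a1 and Eif4a2 had 1 peak each, with -0.25 and -0.44 in the authors' deposited table, neither called. Eif4e3, an eIF4E relative, had 5 peaks from -2.68 to -0.37 in the authors' deposited table, 3 of them in the 3′ UTR, and no call.

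Eif4e2 encodes 4EHP, a cap-binding protein that represses translation, known as a partner of the ZFP36 family member tristetraprolin. None of its 9 peaks was called. The highest, of the class coding, at 87213967 to 87214030 on the plus strand of chromosome 1, had 1.74 (adjusted p = 0.34), as listed in the authors' deposited table. That peak began 56 bases from the gene's RefSeq start, before the gene's peaks of the class 5′ UTR, so its class may not hold for the RefSeq transcript. It is shown here because, of the peaks described, it alone reached into the RefSeq start windows used here (assembly GRCm38.p6), which matched 42 of the 57 genes by symbol. The 30 bases at chr1:87213959-87213988 hold its first 22 bases, in capitals, and the 8 bases before it.
Eif4e2: aagtcactCCGTGAGGCAGTGGCGACAGCG

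**Figure D2:**
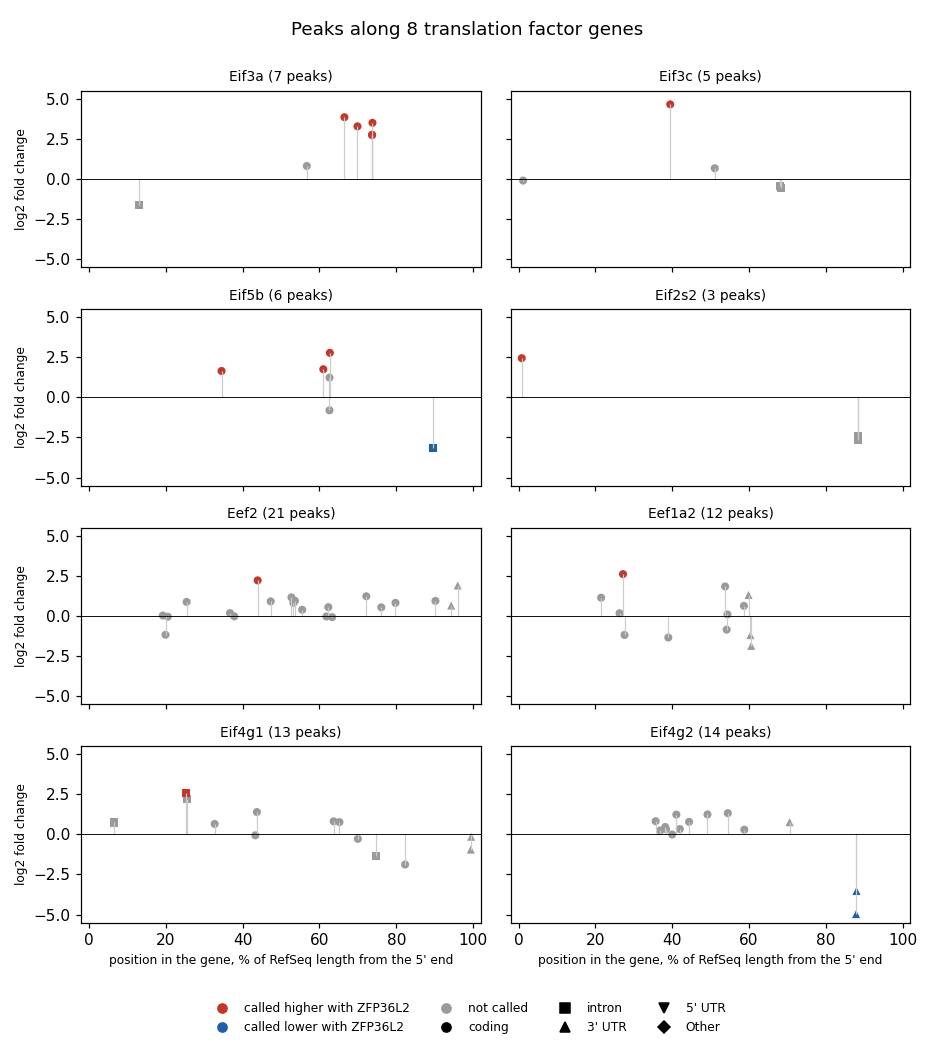
Peaks of 8 genes are placed by their distance from the gene's 5′ end, in percent of its RefSeq length, against their log2 ratio of ZFP36L2 to IgG in the authors' deposited table. Red marks peaks called higher, blue those called lower and grey those not called, with shapes for the transcript region. The 5 called Eif3a peaks sit together from 66.5% to 73.8% of the gene, the called Eif2s2 peak sits at 0.83%, and the 2 lower calls of Eif4g2 sit near 88%, apart from its other peaks.

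The 7 genes listed under elongation, which include Eef1e1 by name only, had 52 peaks. Of these, 4 (7.69%) were called higher, against 2.22% of all peaks, and 0 were called lower, against 5.44%. The differences were not tested, and 7 of the 52 had an unadjusted p under 0.05 in either direction. Eef1g, the gamma subunit of the complex that recharges eEF1A, had the largest value of all translation factor peaks. Its coding peak at 8969801 to 8969848 on chromosome 19 had 4.77 (adjusted p = 1.4e-09), as listed in the authors' deposited table. The 4 other Eef1g peaks, 1 of them intronic, had -1.70, -0.75, -0.63 and -1.98 there, so 1 peak of the gene was high and the others were not.

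Eef1b2 encodes the exchange subunit of the same complex. Its coding peak at 63177198 to 63177262 on chromosome 1 had 3.24 (adjusted p = 1.1e-04), per the authors' deposited table. A 5′ UTR peak that ended 4 bases before it, at 63177146 to 63177193, had 1.72 (adjusted p = 0.78) and was not called, per the authors' deposited table. The 2 coding peaks further along had -1.05 and 0.59 there, with no call. Eef1d, the third subunit, had 3 peaks between -0.21 and 0.22 in the authors' deposited table.

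Eef2, the translocase, had more peaks than any other translation factor gene, 21 in all, 19 of them coding. Their values in the authors' deposited table ran from -1.18 to 2.21 with a median of 0.64, and 16 of 21 were above 0. The 1 call was the coding peak at 81179185 to 81179237 on chromosome 10, with 2.21 (adjusted p = 1.7e-06), as listed in the authors' deposited table. The next highest, in the 3′ UTR at 81182268 to 81182280, had 1.89 (adjusted p = 0.058) and missed the threshold in the authors' deposited table. The pseudogene Eef2-ps2 had 2.10, 1.73 and -0.96 in the authors' deposited table with no call. The other pseudogenes, Eif3s6-ps2 and Eif4a-ps4, lay between -2.05 and 0.97 there, also with no call. The handling of reads that match both Eef2 and its pseudogene, or any other pair of near-identical copies (Eef1a1 and Eef1a2, Eif4a1 and Eif4a2, Eif4a3 and Eif4a3l1), is not known here, so their values are uncertain.

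Of the 2 genes for eEF1A, Eef1a1 is the common form and Eef1a2 the form of muscle and neurons. Eef1a2 had 12 peaks, and its coding peak at 181152836 to 181152905 on chromosome 2 was called higher, with 2.60 (adjusted p = 0.0046), as listed in the authors' deposited table. The other 11 lay between -1.87 and 1.83 there. Eef1a1 had 5 peaks from -0.52 to 1.80 in the authors' deposited table, none called, and the highest was in its 3′ UTR (adjusted p = 0.44). Peaks were also present in all 5 listed cardiac muscle markers (Ttn, Myh6, Ryr2, Actn2 and Myh7), 754 in all, of which 34 (4.51%) were called higher, against 2.22% of all peaks, and 1 (0.133%) lower, against 5.44%. The part of muscle transcripts in the Eef1a2 values was not tested. Of the listed Leydig markers, Star, Cyp11a1, Lhcgr and Nr5a1 had 60 peaks, of which 34 (56.7%) were called higher and 0 lower, while Hsd3b1, Cyp17a1 and Insl3 had none. All 3 macrophage markers had peaks, 22 in all. Among these 22, 0 were called higher and 1 (4.55%) lower, both near the background at the 2.22% and 5.44% of all peaks. Of 3 germ cell markers, 1 had 2 uncalled peaks, and none of 4 Sertoli markers had any. A peak is not a level of expression. The 2 peaks of Eef1e1, a scaffold of the tRNA synthetase complex despite its name, were intronic with -2.88 and -2.64 in the authors' deposited table, and neither was called (adjusted p = 0.13 and 0.32).

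Some of these mRNAs begin with a terminal oligopyrimidine tract, the sequence through which mTOR controls the translation of ribosomal and elongation factor mRNAs. Of the 9 genes listed for this (Eef1a1, Eef1b2, Eef1d, Eef1g, Eef2, Eif3e, Eif3f, Eif3h and Eif4b), 3 (33.3%) had a peak called higher, against 5.04% of all genes, and 1 (11.1%) a peak called lower, against 17.3%. Those 3 were Eef1b2, Eef1g and Eef2, whose calls are the same ones counted under elongation above. By peaks, 3 of 57 (5.26%) were called higher, against 5.75% of translation factor peaks and 2.22% of all peaks. The 57 peaks of the 9 genes, 21 of them in Eef2, had their median log2 fold change at 0.54, against -1.06 for all peaks, by the values of the authors' deposited table. These differences were not tested, and with 9 genes the lower count is near the background.

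For release, Gspt1 had 9 peaks, all intronic. The one at 11227941 to 11227979 on chromosome 16 was called lower, with -3.13 (adjusted p = 0.0047), as listed in the authors' deposited table. The peak that adjoins it, at 11227929 to 11227940, had -2.73 (adjusted p = 0.052) and missed the threshold there. The other 7 lay between -2.31 and 1.0 in the authors' deposited table. Etf1 had 4 peaks, 3 in the 3′ UTR and 1 in the 5′ UTR, from -1.73 to -0.22 in the authors' deposited table, and none was called. Eif5a, needed for peptide bonds at difficult sequences, had 4 peaks from -0.35 to 1.11 in the authors' deposited table. The exon junction helicase Eif4a3 had 2 intronic ones with -1.04 and -1.05 there, and Eif4a3l1, of a like name, had 2 coding ones with -1.80 and -0.61. None of these 3 genes had a call or an unadjusted p under 0.05.

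The regulators whose names match the pattern had 1 called peak among 21, a lower one (4.76%, against 5.44% of all peaks). Eif4ebp1 encodes a repressor that holds eIF4E away from eIF4G until mTOR phosphorylates it. Its peak at 27276492 to 27276528 on chromosome 8, of the class 3′ UTR, had -2.81 (adjusted p = 2.6e-04), as listed in the authors' deposited table. That peak starts 836 bases beyond the RefSeq end of the gene, and the other 260 translation factor peaks lay inside the RefSeq span. The coding peak of Eif4ebp1 had -0.62 and was not called in the authors' deposited table. The stress kinases of eIF2 (Eif2ak1, Eif2ak2, Eif2ak3 and Eif2ak4), the eEF2 kinase Eef2k, the methyltransferase Eef2kmt and the eIF4E transporter Eif4enif1 had no call, with values from -1.97 to 0.68 in the authors' deposited table.

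Transcript regions were then compared, since ZFP36L2 sites are usually sought in 3′ UTRs. Of the translation factor peaks, 130 (49.8%) were coding, against 37.0% of all peaks, and 77 (29.5%) were intronic, against 42.3%. The 3′ UTR held 38 (14.6%), against 13.6%, and the 5′ UTR held 7 (2.68%), against 2.21%. By the log2 fold changes of the authors' deposited table, the median of these coding peaks was 0.24, against -0.72 for all coding peaks. Intronic peaks had -1.35 against -1.31, and 3′ UTR peaks had -0.60 against -1.08, in the authors' deposited table. The translation factor median was thus 0.96 above the table's in coding sequence and within 0.04 of it in introns.

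Calls were then counted by region. Of 130 coding peaks, 14 (10.8%) were called higher, against 2.35% of all coding peaks, and without Eif3a it was 9 of 124 (7.26%). The 1 coding peak called lower made 0.769%, against 3.74% of all coding peaks. Of 77 intronic peaks, 8 (10.4%) in 7 genes were called lower, against 7.04% of all intronic peaks. The 1 intronic peak called higher made 1.30%, against 2.17%. In 3′ UTRs, 0 of 38 peaks were called higher, against 1.46% of all 3′ UTR peaks, a share at which 0 of 38 is near the background. There, 3 peaks (7.89%) in 2 genes were called lower, against 4.83% of all 3′ UTR peaks. These differences were not tested, and several calls share a gene.

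**Figure D3:**
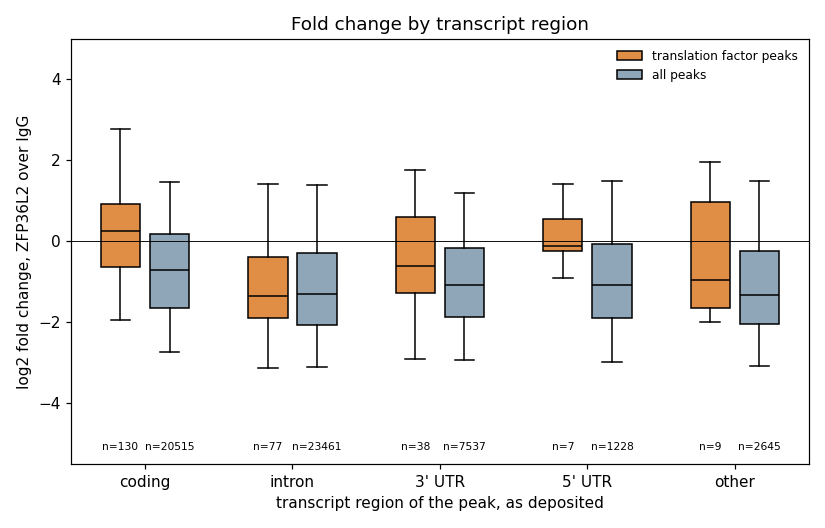
Boxes show the median and quartiles, and whiskers the 5th and 95th percentiles, of the log2 ratio of ZFP36L2 to IgG in the authors' deposited table, for translation factor peaks (orange, left) and all peaks (blue-grey, right) of each transcript region. The coding medians are 0.24 for translation factors and -0.72 for all peaks, and the intronic medians are -1.35 and -1.31. The boxes for the 5′ UTR and the class other rest on 7 and 9 translation factor peaks.

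Coding and intronic peaks were also set against each other within genes. Of the 20 translation factor genes with both coding and intronic peaks, 15 (75%) had the higher median in coding sequence, against 65.7% of 3244 such genes in the table, so the count was near that of the table as a whole. The median difference, coding minus intronic, was 1.06, against 0.51 over all such genes, from the log2 fold changes of the authors' deposited table. It was widest in Eif2s2, Eif5b and Eif3a, with 4.96, 4.81 and 4.64. Eif3m went the other way by -4.35, and Eif4g1, Eif2b3, Eef1a1 and Eif4g3 by -0.84 to -0.18. Several of these medians rest on 1 peak, such as the single intronic peaks of Eif5b and Eif3a. That of Eif4e2 in coding sequence also rests on 1 peak, whose class is uncertain as described above.

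**Figure D4:**
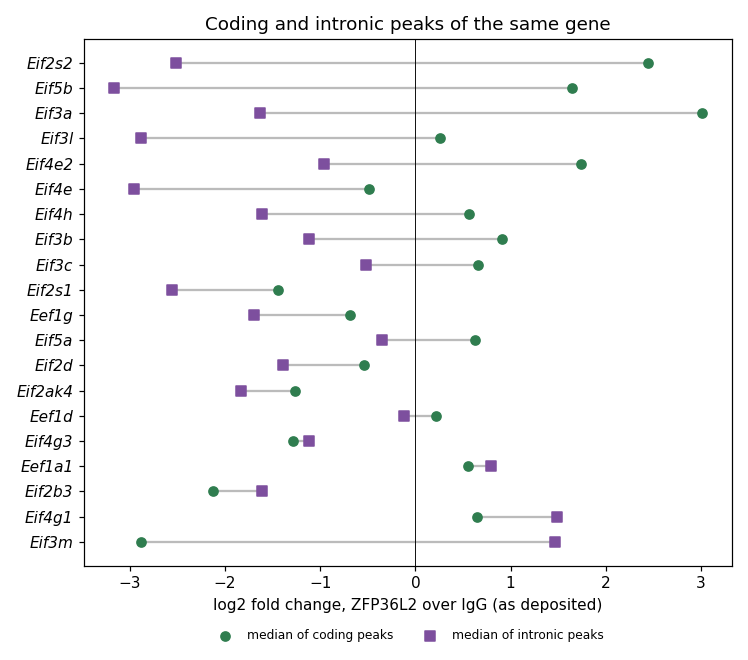
For each of the 20 genes with both kinds of peak, the green circle is the median log2 fold change of its coding peaks and the purple square that of its intronic peaks, from the authors' deposited table. Genes are ordered by the difference. The circle lies right of the square in 15 of 20 genes, with the widest gap in Eif2s2, and left of it in 5, with the widest gap in Eif3m.

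Other genes of the translation machinery were set beside these. Over all peaks, 2.22% were called higher and 5.44% lower. Cytosolic aminoacyl-tRNA synthetases, which charge tRNAs, had 4 of 93 peaks (4.30%) called higher, in 3 of 19 genes, and 2 (2.15%) called lower, in 1 gene (Vars, intronic). The higher ones were coding peaks of Kars, Nars and Sars, with 4.42, 4.10, 3.88 and 4.68 in the authors' deposited table, the 3.88 and 4.68 both in Sars. Their 93 peaks had a median of -0.87 there. Beside the 5.75% higher, 4.60% lower and median of -0.31 for translation factors, ribosomal protein genes had 7 of 113 peaks called higher (6.19%) and 5 lower (4.42%), with their median at -0.10 by the authors' deposited table. Mitochondrial translation factors had 25 peaks in 7 genes with their median at -1.20 by the authors' deposited table. Among these 25 there were 0 calls, which is near the background at the shares of all peaks, and 1 peak had an unadjusted p under 0.05. Of the other factors and mTOR pathway genes listed, 1 of 21 (4.76%) had a peak called higher, close to the 5.04% of all genes. In 6 (28.6%) a peak was called lower, against 17.3%, with no test of the difference. By peaks, 1 of 125 (0.8%) was called higher, against 2.22% of all peaks, and 8 (6.4%) lower, near the 5.44% of all peaks. The gene with the higher call was Pabpc1, the cytoplasmic poly(A)-binding protein. It had 3.57 (adjusted p = 2.6e-14) in 1 coding peak and -3.16 (adjusted p = 0.0015) in another, both in the authors' deposited table.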

How the data were processed

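The labels assign 6 eCLIP libraries to 4 groups, namely ZFP36L2 IP and its input, and IgG IP and its input. The submitters' processing notes name DESeq2 1.34.0, STAR 2.7.7a, UMI-tools 1.1.1, cutadapt 3.2 and build mm10, without role or order. How peaks were called, pooled and normalized is not stated in them. The log2 fold changes were deposited by the authors for peaks, and the p-values and adjusted p-values were deposited as −log10 values and turned back here. The table has 0 columns of single libraries, so the planned count test, replicate block and leave-one-out fits could not be made. The IgG arm rests on 1 IP library, so an effect of the antibody and of that library cannot be told apart. The deposited adjusted values lay within 0.0099 (−log10 scale) of a Benjamini-Hochberg adjustment over all peaks.

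Here peaks were selected by gene name and counted with pandas 2.3.3, and RefSeq spans (GRCm38.p6) matched all 57 names. The calling and merging steps were checked on simulated data. Apart from the RefSeq stretch at Eif4e2, peak sequences and motif counts were not made, as no genome was used here. Members, role lists and alternatives were chosen with earlier results of these data known. Named were all genes with a called peak, factors with over 10 peaks, and the highest and lowest peak of each role group. Some others were named after their values were seen.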

Additional observations from a re-analysis of the deposited data

How the results depend on the processing

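Counts of called peaks and genes stayed within 1.5 times the reported ones in 24 recounts, which changed the adjusted p threshold to 0.01 or 0.1, the log2 fold change to 2, the centring, the merging of touching peaks, the peaks per gene or the membership. The exception was the count of peaks called lower, which was 4 in place of 12 when introns were left out. At an adjusted p under 0.01, 14 peaks were called higher and 8 lower. All 27 calls held after centring on the median of all peaks, but none of them could have been lost. Centring raised every log2 fold change by 1.06 and kept the deposited adjusted p, and the lower call nearest the threshold was at -2.77. Leaving out Eif3a, which was added once the values were known, gave 10 peaks called higher. By the authors' deposited table, the median of the 261 log2 fold changes was -0.31. This median moved to -0.13 with touching peaks merged and weighted by length, and to -0.64 as a median over genes. By the same values it was -0.24 without regulators and pseudogenes, 0.05 outside introns and 0.75 after centring, so its sign is not stable. No paired analysis was possible because the table holds no values of single libraries. For the same reason, leaving out a ZFP36L2 library was not run, and the depth behind each peak is unknown. The planned motif shares were not run.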

Other observations

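Many peaks are pieces of a longer covered stretch. Among translation factor genes, 47 pairs of peaks touched, and the 261 peaks made 214 stretches once touching ones were joined. Values of touching pieces in the authors' deposited table differed by a median of 0.27 on the log2 scale, against 0.28 over all 15049 such pairs, and the largest difference was 2.04. Of the 47 pairs, 6 had values of opposite sign. Short pieces could carry small adjusted p-values, as 4 of the 15 peaks called higher were 5 nucleotides long or shorter, all in Eif3a and Eif5b. In the whole table, 54 of 1231 peaks called higher and 1817 of all 55449 peaks were that short. The difference in share was not tested. Peaks called higher had a median length of 30 nucleotides in translation factor genes, against 46 over all peaks called higher.

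Size alone did not decide a call. In the authors' deposited table, 16 peaks with a log2 fold change of -2 or less and 2 peaks with 2 or more were not called, while the smallest called one had 1.64. Adjusted p-values between 0.05 and 0.1 were deposited for 5 peaks, in Gspt1, Eef2, Eif2s1, Eif5b and Eif4g1. The listed core factors without a peak were Eif1b, Eif5, Eif2s3y, Eif2a, Eif2b2, Eif2b5, Eif3d, Eif3j1, Eif4e1b, Eif4a3l2, Eif6 and Eif5a2, 12 of 58 listed.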
